A study of Mus musculus with 16 samples.

Results

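Oct4 sites bound at day 1 only were the Oct4 binding sites found on the first day of reprogramming and in neither of the later libraries. They were chosen by the summit calls of 3 Oct4 ChIP-seq libraries from Oct4-SK cells at days 1, 5 and 7: summits within 100 bp of the next were merged into 1 site, and a site was a member if it held a day 1 summit and no summit of day 5 or day 7. There were 5891 such sites among 13115 merged Oct4 sites (44.9%) on chromosomes 1 to 19, X and Y. The comparison classes were 2285 kept sites, which had a day 1 summit and a summit of day 5 or day 7 in the same merged site, and 2410 day 5 only sites. The starting cells were OG2-MEFs, fibroblasts of mouse embryos with an Oct4-GFP reporter, and those of every group were transduced with pMX retroviruses for Sox2 and Klf4 (SK) plus 1 POU factor and cultured in iCD1 medium, with the change of medium counted as day 0. The POU factor was Oct4, Oct6, Oct4defSox2 (an Oct4 mutated at its contact with Sox2), Oct4 S151M or Oct6 M151S (which exchange 1 residue between both proteins). The other 10 libraries used to describe the sites were Oct4defSox2 at days 1 and 5, Oct4 S151M at day 1, Oct6 M151S at day 1, and 6 Sox2 libraries, 1 each at day 1 and day 5 from the cocktails with Oct4, Oct6 and Oct4defSox2. The Oct6 M151S library is day 1 by its title and day 2 by another label, and it is called day 1 here. The Oct4 antibody also served for Oct4defSox2 and Oct4 S151M, and antibodies do not separate viral from endogenous protein. Each of the 16 groups had 1 library, so no test over replicates was possible, and every interval below covers counting error among sites only and compares libraries, not conditions.

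Oct4 is a POU factor that reads DNA with a POU-specific domain and a POU homeodomain joined by a flexible linker. It can bind as a monomer on the octamer, next to Sox2 on the composite SoxOct element, or as a homodimer on the palindromic MORE and MORE+1 elements. Reprogramming of fibroblasts starts from chromatin in which enhancers of the somatic programme, many of them marked by AP-1, are accessible, and ends with enhancers of the pluripotency network bound by Oct4 and Sox2 together.

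The sequences of leading members show the kinds of DNA involved, with 1 or more sites per motif class picked by the highest day 1 score. A score is the −log10 p-value of a summit in its own library. All windows reach 100 bp to each side of the day 1 summit, from GRCm38 (mm10), plus strand, and capitals mark every match to SoxOct, MORE, the octamer ATGCAAAT or AP-1 TGANTCA on either strand. The SoxOct example lay in an intron of Sema6d, a semaphorin gene (chr2:124606089-124606289). A window in an intron of Dop1b (chr16:93771876-93772076) held 3 octamers, 1 of them within a SoxOct match and 1 overlapping its start. The MORE example lay in an intron of Zdhhc14, a palmitoyltransferase gene (chr17:5641231-5641431), and 62.2% of its bases were soft-masked as repeats. The octamer example lay between genes, upstream of Agpat4 (chr17:12087480-12087680), and also held an AP-1 match. The AP-1 example without any POU motif lay in an intron of Gab1, a docking protein of receptor tyrosine kinases (chr8:80829845-80830045). A second Sema6d window held none of these motifs (chr2:124380571-124380771). The intergenic window on chromosome 19 (chr19:59861996-59862196) was bound in 9 of the other 10 libraries and held no match either.
Sema6d SoxOct site: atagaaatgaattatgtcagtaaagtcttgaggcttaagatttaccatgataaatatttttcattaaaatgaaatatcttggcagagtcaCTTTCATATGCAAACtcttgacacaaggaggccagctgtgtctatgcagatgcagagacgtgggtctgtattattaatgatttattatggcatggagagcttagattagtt
Dop1b SoxOct and octamer site: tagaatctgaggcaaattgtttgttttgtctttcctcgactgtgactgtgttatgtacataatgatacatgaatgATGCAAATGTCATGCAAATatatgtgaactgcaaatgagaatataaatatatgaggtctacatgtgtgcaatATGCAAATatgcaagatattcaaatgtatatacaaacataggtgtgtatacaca
Zdhhc14 MORE site: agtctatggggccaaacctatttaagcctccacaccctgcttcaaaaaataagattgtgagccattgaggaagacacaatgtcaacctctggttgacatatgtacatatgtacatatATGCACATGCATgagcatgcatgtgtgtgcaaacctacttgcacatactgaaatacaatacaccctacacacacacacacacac
Agpat4 octamer and AP-1 site: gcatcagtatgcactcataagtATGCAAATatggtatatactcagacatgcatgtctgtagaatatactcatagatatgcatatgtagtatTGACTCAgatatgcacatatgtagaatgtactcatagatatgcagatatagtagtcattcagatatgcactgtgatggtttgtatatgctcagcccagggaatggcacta
Gab1 AP-1 site: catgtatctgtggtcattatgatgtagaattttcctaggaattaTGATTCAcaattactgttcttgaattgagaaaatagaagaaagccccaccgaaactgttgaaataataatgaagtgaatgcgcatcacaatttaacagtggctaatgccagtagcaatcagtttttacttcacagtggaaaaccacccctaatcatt
Sema6d site without these motifs: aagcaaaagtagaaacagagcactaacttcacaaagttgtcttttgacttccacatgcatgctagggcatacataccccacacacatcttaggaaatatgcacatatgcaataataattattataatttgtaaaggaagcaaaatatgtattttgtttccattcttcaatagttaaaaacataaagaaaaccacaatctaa
Chromosome 19 site of 9 libraries: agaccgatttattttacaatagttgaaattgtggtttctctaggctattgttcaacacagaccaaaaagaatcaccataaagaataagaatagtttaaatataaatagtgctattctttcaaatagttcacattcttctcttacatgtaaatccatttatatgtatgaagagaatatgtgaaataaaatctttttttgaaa

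These sites differed in which other factors were called there. The Sema6d SoxOct site had a day 1 Oct4 score of 89.7, with scores of 302 for Oct4 S151M, 18.3 for Oct4defSox2 at day 1 and 5.81 for Oct6 M151S, and no Sox2 summit. The Dop1b site had the same Oct4 score of 89.7 and was shared with Oct4 S151M (280) and Oct4defSox2 at day 1 (17.4). The Zdhhc14 MORE site (96.7) was called in both mutants at day 1, with scores of 157 for Oct4 S151M and 12.8 for Oct4defSox2. None of these 3 sites carried Sox2 in any of the 6 Sox2 libraries. The other leading MORE site, in a UTR of Abca8b (chr11:109932343-109932543, match ATGAATATTTAT), did carry Sox2 in Oct4-SK cells at day 1 (27.1), beside Oct4 S151M (793), Oct4defSox2 at day 1 (170) and Oct6 M151S (4.73). The Agpat4 octamer site (56.9) was called in Oct4 S151M (300) and in Oct4defSox2 at day 1 (41.3), and the octamer site in an intron of Trp63 (chr16:25857439-25857639, 49.3), a p53-family gene, in Oct4 S151M alone (11). The Gab1 AP-1 site (72.1) was called in Oct4defSox2 at day 1 (83.2), Oct4 S151M (144) and Sox2 in Oct4-SK at day 1 (10.8). An intergenic AP-1 site on chromosome 8 (chr8:6645098-6645298, 59.8) was called in Oct4defSox2 at day 1 (71.5) and Oct4 S151M (105). Of the sites holding none of these motifs, the Sema6d window (107) was called in Oct4 S151M (422), Oct4defSox2 at day 1 (132) and Oct6 M151S (5.81), and an intron site of Mzt1 (chr14:99040708-99040908, 92.1) in Oct4 S151M alone (368). These sites were picked for high scores, and all were called with Oct4 S151M, as were 94.9% of members with a score of at least 20. None was called in a day 5 library, as 9.32% of all members were.

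Other sites were picked for being bound in 9 of the other 10 libraries, which fixes most of their calls. An intergenic site on chromosome 4 (chr4:5059422-5059622) had a modest day 1 Oct4 score of 18 and reached its highest Sox2 score, 103, in Oct4defSox2-SK cells at day 5. At day 1 its Sox2 scores were 16.9 in Oct4-SK cells and 15.2 in Oct4defSox2-SK cells. At the chromosome 19 site (21.8) Sox2 scored 39.4 and 13 in Oct4-SK cells at days 1 and 5. At both sites the only library without a summit was Oct4defSox2 at day 5. At 2 members Sox2 in Oct4-SK at day 5 was the only other call: an intronic site of 2010300C02Rik (chr1:37643701-37643901, Oct4 day 1 score 10.2, Sox2 day 5 score 11.9) and a window of 65.2% GC upstream of Ezh2, the Polycomb methyltransferase gene (chr6:47651426-47651626, 6.72 and 6.45).

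The values that defined the class are given as a description. Oct4 gave 8216 summits at day 1, 4854 at day 5 and 3638 at day 7, and the shorter later lists leave fewer later calls for any site to share. Loss of binding and a shorter list of called summits cannot be told apart in these files. With equal numbers of the strongest summits per day, 2121 day 1 only sites were left, and with a score of at least 10 in every library 3398. Their median day 1 score was 10.0 (quartiles 7.11 and 14.3, range 4.00 to 165), against 17.0 for kept sites (10.9 and 28.7). Of day 1 sites with a score under 6, 807 of 888 (90.9%) were day 1 only, of those from 6 to under 10 2137 of 2507 (85.2%), of those from 10 to under 20 2280 of 3165 (72.0%), and of those at 20 and above 667 of 1616 (41.3%). Few members lay near the threshold of 100 bp: 5595 had no day 5 or day 7 summit within 1000 bp, and 114 had one up to 150 bp away. Just inside lay a Kif6 intron site (chr17:49691177-49691377, score 11.5, nearest later summit 1 bp beyond it) and a Zfp600 intron site (chr4:146167412-146167612, score 7.22, with one at 102 bp). Just outside lay 2 kept sites, 1 on chromosome 4 (chr4:30510377-30510577, day 1 score 4.84, day 5 score 8.03), whose day 1 summit was joined over 140 bp, and 1 on chromosome 7 (chr7:83572040-83572240, 11.8 and 6.70), joined over 100 bp. The Sema6d site without motifs, the highest of all sites named here (107), also had a later summit at 105 bp.

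The design lets each site be followed in other cocktails and on other days, none of which entered the rule. At day 1 the members were widely bound by the Oct4 mutants and less often than kept sites. The Oct4 S151M list was the longest of all libraries, with 101170 summits against 31070 for Oct4defSox2 at day 1. A longer list leaves more calls for any site to share. Oct4 S151M had a summit at 4310 of 5891 day 1 only sites (73.2%) and at 2101 of 2285 kept sites (91.9%), a difference of −18.8 percentage points (95% Newcombe interval −20.3 to −17.2), with 62.9% over all Oct4 sites as background. Oct4defSox2 at day 1 was called at 2832 members (48.1%) and 1871 kept sites (81.9%), a difference of −33.8 points (−35.8 to −31.7) against a background of 46.5%. With the strongest 1034 summits of each library these differences were −7.99 (−9.42 to −6.66) for Oct4 S151M and −21.5 (−23.4 to −19.7) for Oct4defSox2. Both mutants together were called at 2340 members (39.7%), Oct4 S151M without Oct4defSox2 at 1970 (33.4%), Oct4defSox2 without Oct4 S151M at 492 (8.35%) and neither at 1089 (18.5%). Over all Oct4 sites these shares were 38.5%, 24.4%, 8.01% and 29.1%, and at kept sites 77.2%, 14.7%, 4.68% and 3.37%. Oct6 M151S, which shows 22804 summits at a looser threshold than the other libraries, was called at 479 members (8.13%) and 207 kept sites (9.06%), a difference of −0.928 points whose interval (−2.34 to 0.397) included 0, beside 6.02% over all sites. This difference excluded 0 with a score of at least 10 in every library (−0.684, −1.46 to −0.107) and with the strongest 1034 summits of each library (−0.885, −1.68 to −0.205). Where bound, the members had a median fold enrichment of 11.8 in Oct4 S151M (17.1 at kept sites, 7.32 over that library) and 2.70 in Oct6 M151S (2.89 and 2.42). At positions 10 kb to either side of the members the same libraries had a summit in 1.05% (Oct4 S151M), 0.433% (Oct4defSox2) and 0.221% (Oct6 M151S) of cases.

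**Figure D1:**
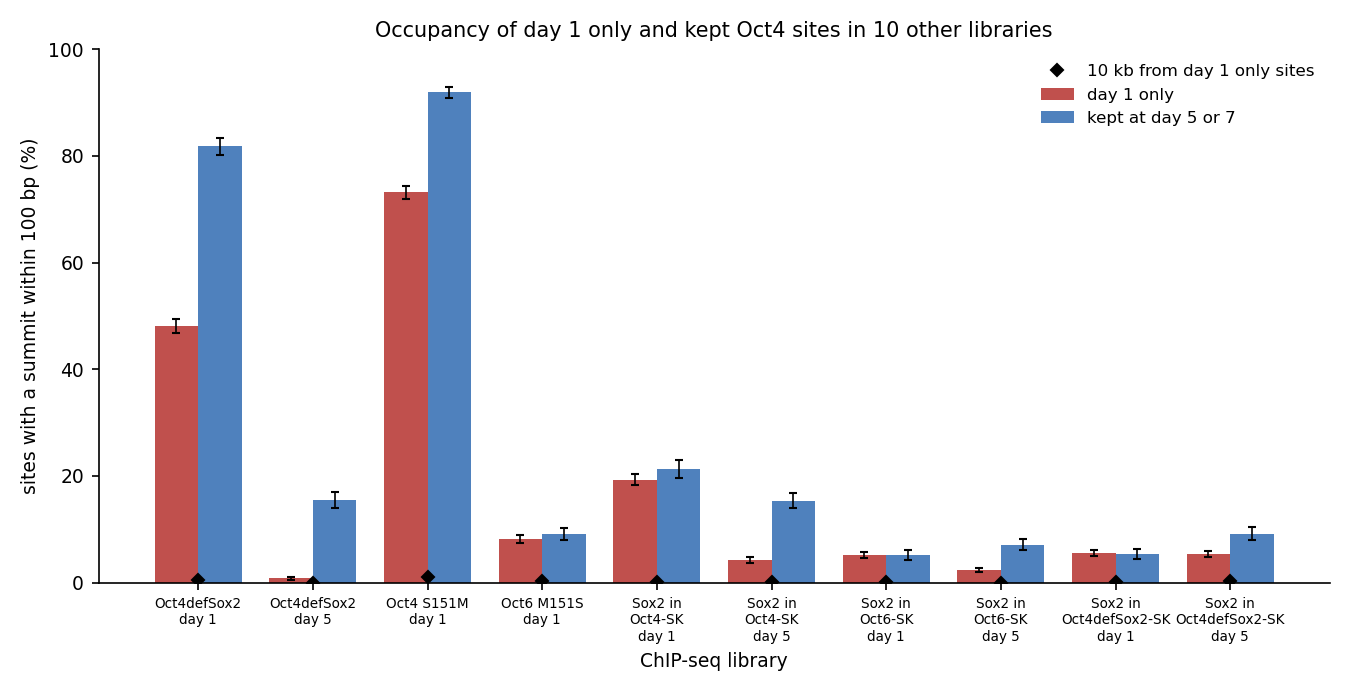
Share of day 1 only (n = 5891) and kept (n = 2285) Oct4 sites with a summit within 100 bp (y axis, percent) in each of 10 other ChIP-seq libraries (x axis). Error bars are Wilson 95% intervals and diamonds give the share 10 kb from day 1 only sites. Day 1 Sox2 shares differ less between the classes than day 5 shares, for example 19.3% and 21.3% in Oct4-SK cells (difference −1.93, −3.92 to −0.00822). Day 5 shares are lower at day 1 only sites.

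Sox2, the partner of Oct4 in the pluripotency network, had day 1 shares at the members near those of kept sites at the main settings. Its day 5 shares were lower at the members. In Oct4-SK cells at day 1, Sox2 was called at 1139 members (19.3%, Wilson 95% interval 18.3 to 20.4) and 486 kept sites (21.3%), a difference of −1.93 points with an interval that barely excluded 0 (−3.92 to −0.00822), beside 14.3% over all Oct4 sites. This difference was 1.37 points with the sign turned (−2.54 to 4.79) among sites with a day 1 score under 10. With the strongest 1034 summits of each library it was −2.38 (−3.55 to −1.32), past counting error. It was also past it at sites with SoxOct (−6.70, −11.4 to −2.04), but not at sites with MORE (2.86, −1.17 to 6.83) or AP-1 (1.87, −2.90 to 6.34). In Oct6-SK cells at day 1 the shares were 5.11% and 5.16% (difference −0.0546, −1.17 to 0.969, background 3.50%), and in Oct4defSox2-SK cells 5.48% and 5.34% (0.144, −0.998 to 1.19, background 3.96%). On day 5 the 3 cocktails all showed less Sox2 at members than at kept sites. The shares were 4.24% and 15.3% in Oct4-SK cells (difference −11, −12.6 to −9.51, background 6.63%), 2.31% and 7.00% in Oct6-SK cells (−4.69, −5.87 to −3.63, background 3.31%), and 5.33% and 9.19% in Oct4defSox2-SK cells (−3.86, −5.23 to −2.59, background 6.31%). With the strongest 1034 summits of each library the 3 differences were smaller, at −4.02 (−5.04 to −3.13), −3.03 (−3.95 to −2.23) and −0.639 (−1.26 to −0.140). Day 5 only sites, where Oct4 was called at day 5, had Sox2 in similar shares in Oct4-SK (4.90%, members minus day 5 only −0.653, −1.71 to 0.309) and Oct6-SK cells (2.90%, −0.596, −1.42 to 0.133), both within counting error. In Oct4defSox2-SK cells day 5 only sites had 8.22% (−2.89, −4.17 to −1.69). The difference from kept sites in Oct4defSox2-SK cells did not pass counting error among sites with a day 1 score under 10 (−1.44, −4.33 to 0.810).

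Followed site by site, Sox2 in Oct4-SK cells fell from 19.3% of the members at day 1 to 4.24% at day 5, a paired difference of 15.1 points (14.1 to 16.1). The Sox2 list shrank from 15222 to 5832 summits over the same days, and with the strongest 1034 summits of each library the difference was 2.73 (2.22 to 3.27). Of the 1139 members with Sox2 at day 1, 155 (13.6%) had it at day 5, against 162 of 486 kept sites (33.3%), a difference of −19.7 points (−24.4 to −15.2). Only 95 members (1.61%) had Sox2 at day 5 and not at day 1. In Oct6-SK cells 38 of 301 members (12.6%) and 41 of 118 kept sites (34.7%) still had Sox2 at day 5 (−22.1, −31.7 to −13.1). In Oct4defSox2-SK cells the corresponding shares were 117 of 323 (36.2%) and 59 of 122 (48.4%), a difference of −12.1 points (−22.3 to −1.93). Sox2 in that cocktail was called at the same share of members on both days, 5.48% and 5.33% (paired difference 0.153, −0.518 to 0.824), while its list grew from 5794 to 21563 summits. The sign of this last difference depended on the summits used: it was −0.912 (−1.65 to −0.188) with a score of at least 10 and 0.781 (0.456 to 1.13) with equal numbers of summits.

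Oct4defSox2 itself was called at few members at day 5. It had a summit at 46 sites (0.781%), against 353 kept sites (15.4%), a difference of −14.7 points (−16.2 to −13.2) beside 4.42% over all Oct4 sites. From day 1 to day 5 its share at the members fell by 47.3 points (46.0 to 48.6), or by 3.02 (2.55 to 3.53) when the strongest 1034 summits of each library were used, and 43 of 2832 sites called at day 1 were still called (1.52%), against 352 of 1871 kept sites (18.8%). The Oct4defSox2 day 5 list held 1038 summits, the shortest of all libraries, and the day 1 list 31070.

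Since kept sites had higher day 1 scores, the comparison was repeated within 4 ranges of that score. Oct4defSox2 at day 1 was below kept sites in all 4 ranges, with differences of −31.9 points (−42.2 to −20.5) under a score of 6 (29.9% and 61.7%) and −20.9 (−24.9 to −16.9) at 20 and above (68.7% and 89.6%). Sox2 in Oct4-SK at day 5 was also lower in all 4, with differences of −8.26 (−17.0 to −2.92) in the lowest range and −11.9 (−14.5 to −9.17) in the highest. Oct4defSox2 at day 5 and Sox2 in Oct6-SK at day 5 passed counting error in 4 of 4 ranges as well, and Sox2 in Oct4defSox2-SK at day 5 in 2 of 4. The difference for Oct4 S151M shrank from −17.2 points in the lowest range to −1.94 (−4.09 to 0.00476) in the highest, where 94.9% of members and 96.8% of kept sites were bound. Sox2 in Oct4-SK at day 1 did not differ past counting error in 3 ranges and was higher at the members in the range from 10 to under 20 (difference 3.21, 0.153 to 6.08).

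**Figure D2:**
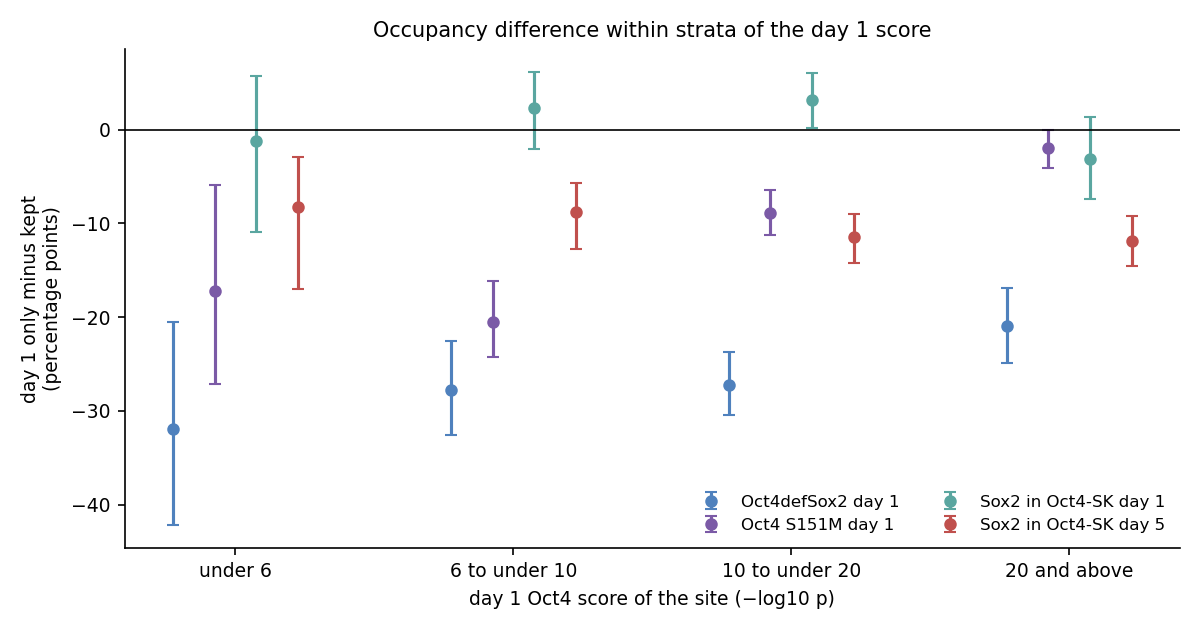
Difference in occupancy, day 1 only minus kept sites (y axis, percentage points), within 4 ranges of the day 1 Oct4 score (x axis, −log10 p) for 4 libraries. Points are differences and bars Newcombe 95% intervals. Oct4defSox2 at day 1 and Sox2 in Oct4-SK at day 5 lie below 0 in every range, and Sox2 in Oct4-SK at day 1 lies near 0.

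Counted over libraries, 885 members (15.0%) were bound in none of the other 10, against 57 kept sites (2.49%), a difference of 12.5 points (11.4 to 13.6). The share was 25.5% over all Oct4 sites and higher still at day 5 only sites (43.2%, members minus day 5 only −28.1, −30.3 to −26). The commonest patterns were Oct4 S151M alone (1603 sites, 27.2%) and Oct4 S151M with Oct4defSox2 at day 1 (1331, 22.6%). Oct4 S151M also had the longest list of summits. Any Sox2 library was present at 1555 members (26.4%, with 22.9% over all sites), all 6 at 16 (0.272% and 0.198%), and any of the other day 5 libraries at 549 (9.32%, against 34.3% of kept and 15.2% of all sites). The 885 sites seen in no other library had a lower median day 1 score (7.00, against 10.7 for the rest). They more often lacked a POU motif (88.5% and 74.5%, difference 14 points, 11.4 to 16.3), less often held AP-1 (10.5% and 18.7%, −8.17, −10.3 to −5.73) and more often lay at promoters (9.04% and 3.54%, 5.50, 3.70 to 7.63).

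The motifs of the members were scored as matches of consensus strings within 100 bp of the summit, with windows 2 kb to either side as their local background. POU motifs were more frequent than in that background, less frequent than at kept sites and within counting error of day 5 only sites. SoxOct, allowing 2 mismatches, was found at 661 members (11.2%), 25.2% of kept sites and 1.06% of windows 2 kb away, beside 17.5% over all Oct4 sites. The difference from kept sites was −13.9 points (−15.9 to −12). MORE or MORE+1, allowing 1 mismatch, was found at 458 members (7.77%), 17.5% of kept sites and 0.857% of windows away (difference from kept −9.69, −11.4 to −8.03, background 9.09%). The octamer was found at 441 members (7.49%), 11.1% of kept sites and 1.64% away (−3.59, −5.08 to −2.18, background 9.27%). No POU motif at these settings was found in 4512 members (76.6%) and 54.2% of kept sites, a difference of 22.4 points (20.1 to 24.7), with 69.5% over all sites and 96.7% in windows away. Day 5 only sites had SoxOct in 11.9% (members minus day 5 only −0.688, −2.25 to 0.799), MORE in 8.80% (−1.02, −2.39 to 0.260), the octamer in 7.84% (−0.356, −1.67 to 0.870) and no POU motif in 75.6% (0.948, −1.05 to 3.00), all within counting error. With a stricter match, which fewer sites of both classes met, the differences from kept sites were smaller in points. They were −3.63 (−4.62 to −2.78) for SoxOct, −3.94 (−4.92 to −3.09) for MORE and 9.60 (7.88 to 11.4) for the lack of a POU motif. Differences in SoxOct, MORE and the lack of a POU motif passed counting error in 4 of 4 score ranges. Matches with fewer mismatches were rare: the best SoxOct match had 1 mismatch at 66 of 5891 members and 102 of 2285 kept sites. A perfect SoxOct occurred at 1 member and 7 kept sites, and a perfect MORE at 45 and 89. SoxOct matches also lay farther from the summit, at a median of 29 bp in members and 18 bp in kept sites, and so did matches of MORE (24.5 and 16.5 bp) and MORE+1 (25 and 19 bp).

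AP-1 is the factor of fibroblast enhancers formed by Fos and Jun proteins. Its motif was found in 1028 members (17.5%), 19.1% of kept sites, 18.8% of day 5 only sites and 6.06% of windows 2 kb away, with 16.5% over all Oct4 sites as background. The difference from kept sites was −1.67 points (−3.59 to 0.174) and that from day 5 only sites −1.30 (−3.17 to 0.500), both within counting error. With the search narrowed to 50 bp both were just past it, at −1.65 (−3.18 to −0.208) and −1.62 (−3.11 to −0.205). It was no more frequent among members lacking a POU motif (17.8%) than among those with one (16.3%, difference 1.48, −0.834 to 3.66). The single Sox motif CCNTTGT was found in 17.5% of members, 22.6% of kept sites and 9.82% of windows away (difference from kept −5.12, −7.12 to −3.18, background 18.5%). The KLF motif GGGNGNGGC, for the family of the delivered Klf4, was found in 3.02%, 5.03% and 2.29% (difference from kept −2.01, −3.07 to −1.06, background 4.34%). Neither of these last differences passed counting error among sites with a day 1 score under 10, at −3.44 (−7.65 to 0.351) and −0.936 (−3.33 to 0.772). No match to any of the 3 POU elements, AP-1, Sox or KLF was found in 2957 members (50.2%), with 45.1% over all Oct4 sites, 46.4% of day 5 only sites and 31.9% of kept sites (members minus kept 18.3, 16 to 20.6). Among 4 motifs added after the values of the others had been seen, TEAD (ACATTCC) was at 3.85% of members and 6.04% of kept sites with 4.68% over all sites, and RUNX (TGTGGTT) at 7.01% and 10.1% with 7.34% over all. C/EBP (TTGCNNAA) was at 14.5% and 16.1% with 15.3% over all, a difference within counting error (−1.57, −3.37 to 0.145). CTCF, with 1 mismatch, was at 0.917% of members, below windows 2 kb away (1.43%, difference −0.518, −0.832 to −0.176), and at 2.06% of kept sites, with 1.65% over all sites.

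**Figure D3:**
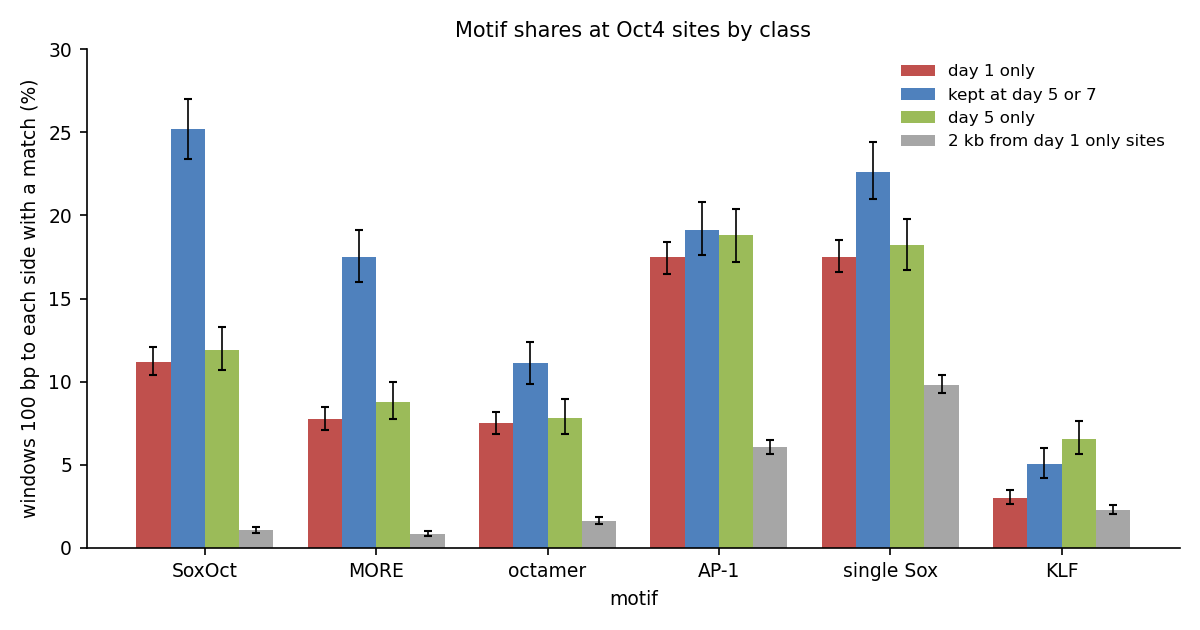
Share of summit windows with a motif match (y axis, percent) for 6 motifs (x axis) at day 1 only, kept and day 5 only sites, and 2 kb from day 1 only sites. Error bars are Wilson 95% intervals. SoxOct and MORE reach 25.2% and 17.5% at kept sites and 11.2% and 7.77% at day 1 only sites, while AP-1 is between 17.5% and 19.1% in the 3 classes.

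Within the members, the motif went with which mutant was called. Oct4 S151M was called at 438 of 458 MORE sites (95.6%), 82.5% of SoxOct sites, 80.5% of sites with an octamer alone and 69.3% of the 4512 sites lacking a POU motif. The MORE sites exceeded those lacking a POU motif by 26.4 points (23.7 to 28.4) and the SoxOct sites by 13.2 (9.81 to 16.2), the latter turning to −1.08 (−1.70 to −0.0207) when the strongest 1034 summits of each library were used. For MORE the difference was 12.1 (8.98 to 14.3) with equal numbers of Oct4 summits and 15.5 (13.7 to 16.8) at a sharing distance of 250 bp. Oct4defSox2 at day 1 was called at 57.2% of MORE sites, 61.6% of octamer sites, 49.6% of SoxOct sites and 46.0% of sites lacking a POU motif. MORE sites exceeded the last group by 11.2 points (6.42 to 15.9), and SoxOct sites by 3.63, within counting error (−0.435 to 7.70). The MORE difference was also within counting error at a sharing distance of 250 bp (4.59, −0.166 to 9.17) and with equal numbers of Oct4 summits (4.47, −2.37 to 10.9). The SoxOct difference passed it with a stricter match (13, 1.02 to 24) and with a looser one (5.35, 2.51 to 8.17). At day 5, Oct4defSox2 was called at 15 MORE members (3.28%), 4 octamer members (1.32%) and 27 members lacking a POU motif (0.598%). It was called at 0 of 661 SoxOct members, a count that allows a share of up to 0.454% at 3 counts of the total (Wilson upper limit 0.578%). SoxOct members minus those lacking a POU motif gave −0.598 points (−0.869 to 0.00885), within counting error. MORE members minus the same group gave 2.68 (1.37 to 4.74). Against kept sites with the same motif, Oct4defSox2 at day 1 was lower for SoxOct (−33.3 points, −38.1 to −28.3), MORE (−32.8, −38 to −27.2) and no POU motif (−32.2, −34.9 to −29.4). Sites with an octamer alone were not compared in this way.

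Sox2 followed the motifs differently. In Oct4-SK cells at day 1 it was called at 19.2% of SoxOct members and 20.3% of members lacking a POU motif (difference −1.09, −4.15 to 2.29), and at 11.1% of MORE members, 9.17 points fewer than those lacking a motif (−12 to −5.76 as the difference). On kept sites with SoxOct, Sox2 was at 25.9% at day 1 and 19% at day 5, against 19.2% and 4.08% on members with SoxOct. The day 5 shares of members and kept sites were 4.61% and 16.7% with no POU motif, 1.09% and 5.01% with MORE, and 3.79% and 14.6% with AP-1, so the day 5 gap was not confined to SoxOct. In Oct4defSox2-SK cells at day 1, Sox2 was called at 3.33% of SoxOct members, 1.75% of MORE members and 6.29% of members lacking a POU motif. Members with AP-1 had more calls than those without in several libraries: 59.7% and 45.6% in Oct4defSox2 at day 1 (difference 14.1, 10.8 to 17.4), 78.7% and 72.0% in Oct4 S151M (6.70, 3.81 to 9.42), and 23.2% and 18.5% in Sox2 in Oct4-SK at day 1 (4.62, 1.91 to 7.50). AP-1 members also had more in Oct4defSox2 at day 5 (1.46% and 0.637%, 0.822, 0.190 to 1.77) and in Sox2 in Oct4defSox2-SK at day 5 (7.30% and 4.91%, 2.38, 0.807 to 4.23). The difference for Sox2 in Oct4-SK at day 1 was within counting error when summits had to lie within 50 bp (0.0469, −1.95 to 2.28) and under 3 further settings. Median day 1 scores were 10.8 for SoxOct, 11.9 for MORE, 10.7 for the octamer alone and 9.60 with no POU motif. MORE was found at 14.2% of members with a score of 20 and above and at 5.08% of those under 6.

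**Figure D4:**
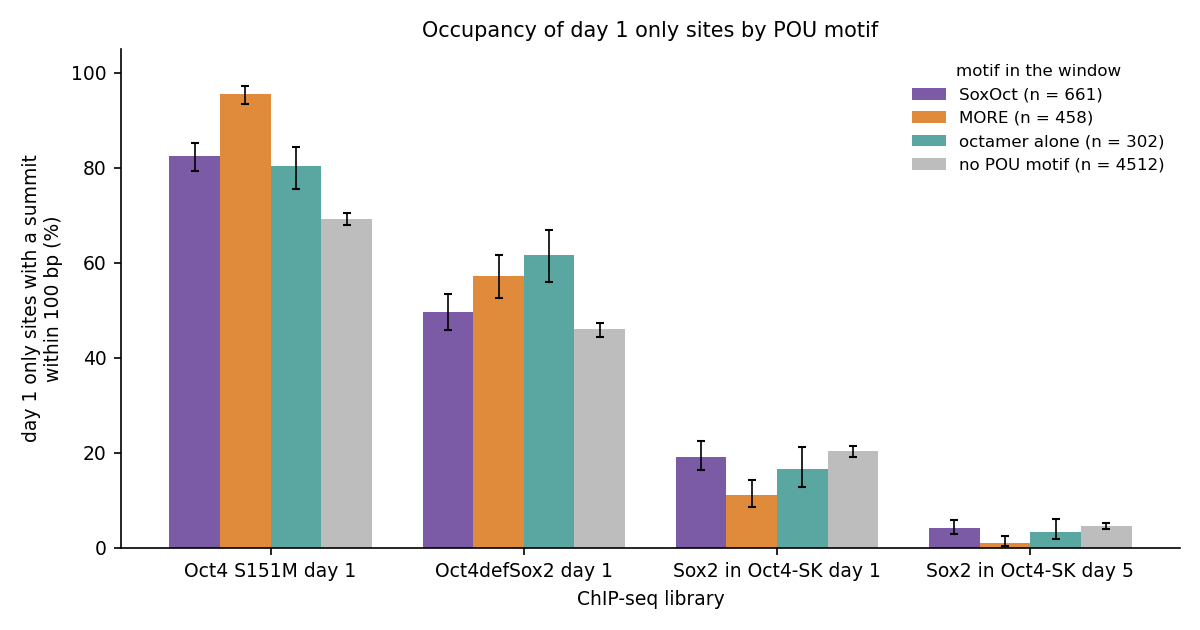
Share of day 1 only sites with a summit within 100 bp (y axis, percent) in 4 libraries (x axis), by the POU motif in the window. Error bars are Wilson 95% intervals and the number of sites is in the key, with 42 sites counted under both SoxOct and MORE. MORE sites are highest in Oct4 S151M (95.6%) and lowest in Sox2 in Oct4-SK at days 1 and 5 (11.1% and 1.09%).

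Day 1 only sites lay mainly in introns and between genes, and farther from gene starts than kept sites. Promoters, within 1 kb of an annotated transcription start, held 257 members (4.36%), 7.05% of kept sites and 12.4% of day 5 only sites, with 6.68% over all Oct4 sites. The differences were −2.68 points (−3.91 to −1.56) from kept and −8.00 (−9.46 to −6.63) from day 5 only sites. Introns held 47.9% of members, with 47.8% over all sites, and intergenic DNA 45.4%, with 42.8% over all and 41.4% of kept sites (difference 4.02, 1.63 to 6.40). Coding exons held 24 members (0.407%, with 0.549% over all sites), UTRs 71 (1.21%, with 1.42%) and non-coding exons 41 (0.696%, with 0.686%). The median distance to the start of the nearest protein-coding gene was 80293 bp for members, 56738 bp for kept sites and 46026 bp for day 5 only sites, and 44.7% of members were over 100 kb from any such start, 8.29 points more than kept sites (5.93 to 10.6). The windows were poor in GC, with a median of 37.3% (41.0% in windows 2 kb away), against 40.3% for kept and 43.3% for day 5 only sites. Of the members 12.1% were over 50% soft-masked as repeats, and 11.4% of kept sites were (difference 0.647, −0.943 to 2.15). In windows 2 kb away the shares were 17.9% and 15.8%. Members at promoters were less often called in Oct4 S151M than those elsewhere (54.9% and 74.0%, −19.1, −25.3 to −13.1). Their density was 0.655 per Mb on chromosome X and between 1.54 and 2.88 per Mb on the autosomes. The share of day 1 sites that were day 1 only was between 67.1% and 75.6% on every one of these chromosomes.

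**Figure D5:**
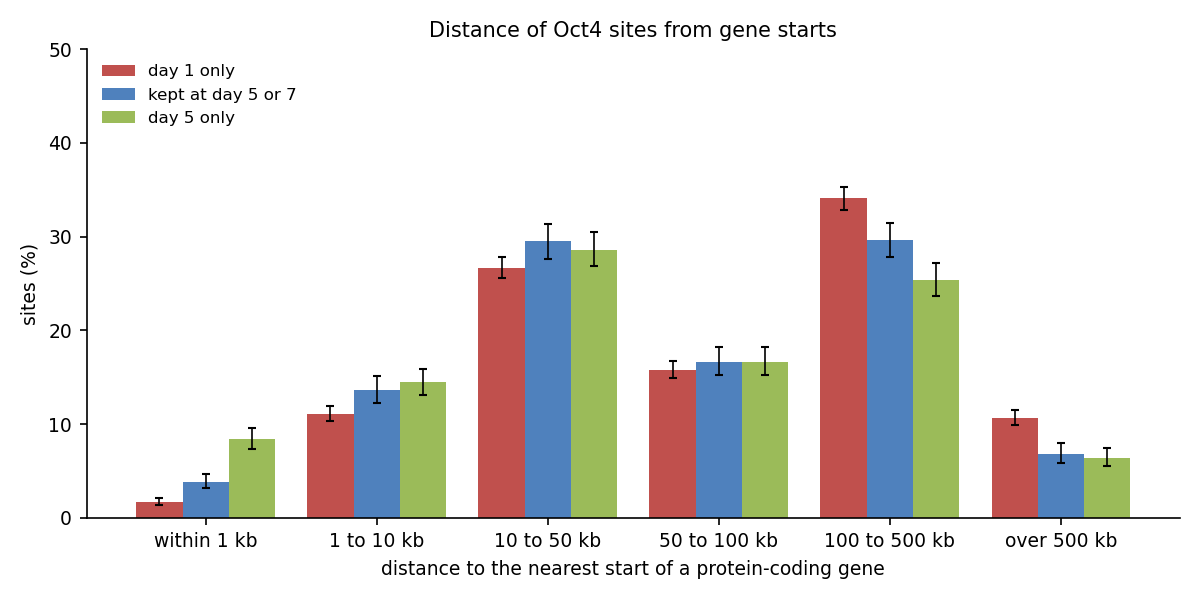
Share of sites (y axis, percent) by distance to the nearest start of a protein-coding gene (x axis, 6 ranges) for day 1 only, kept and day 5 only Oct4 sites. Error bars are Wilson 95% intervals. Day 1 only sites are lowest within 1 kb (1.71%, against 3.85% and 8.42%) and highest over 100 kb (34.1% from 100 to 500 kb and 10.6% beyond).

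A small group of members lay at tRNA genes, which RNA polymerase III transcribes. A nuclear tRNA gene of the RefSeq annotation lay within 250 bp of 40 members (0.679%), 3 kept sites (0.131%) and 1 day 5 only site, with 0.343% over all Oct4 sites. The difference from kept sites was 0.548 points (0.236 to 0.807). Within 250 bp of these 40 sites lay 41 of 403 tRNA genes (10.2%), and 11 of the sites lay inside one. The genes were of 18 amino acid types, with 12 of the sites on chromosome 13 and 8 on chromosome 11. None of them held a POU motif, against 76.4% lacking one elsewhere, and 33 (82.5%) were called in no other library, against 14.6% of the remaining members (difference 67.9, 53.5 to 76.7). Oct4 S151M was called at 4 of them and Sox2 in Oct4-SK at day 1 at 0. Summits near tRNA genes occurred in other lists too: 38 in Oct4 S151M (0.0376% of its summits), 22 in Oct4defSox2 at day 1 (0.0708%), 5 in Oct4defSox2 at day 5 (0.484%) and 18 in Sox2 in Oct4defSox2-SK at day 5 (0.0835%), beside 43 in Oct4 at day 1 (0.524%). Their day 1 scores were between 4.16 and 17.3 with a median of 8.16. The difference from kept sites was lost with a score of at least 10 (0.0908, −0.308 to 0.342) and had the opposite sign with equal numbers of the strongest Oct4 summits (−0.0397, −0.399 to 0.228). The highest was at a threonine tRNA gene, n-TTagt4, on chromosome 13 (chr13:21855902-21856102), 19 bp from the gene.

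Of 21911 protein-coding genes, 3466 (15.8%) had a member within 50 kb of their start, 2917 of them 1 member, 444 of them 2 and 81 of them 3. The 10 named here had the most, with ties at 4 sites, a number that 18 genes had, broken by summed score. Some of them are neighbours that share sites. Btn1a1, a butyrophilin gene beside the histone cluster of chromosome 13, had 6, of which 5 were within 250 bp of a tRNA gene. Aurkb, which encodes the mitotic kinase Aurora B, and its neighbours Borcs6, Tmem107 and Vamp2 on chromosome 11 each had 5, of which 3 were at tRNA genes. The histone genes Hist1h2ap, Hist1h2br and Hist1h4n had 4 each, with a highest score of 46.0, and 1 of the 4 was at a tRNA gene. Gm21149 on chromosome 5 had 5 and the zinc finger gene Zfp655 had 4, with none at a tRNA gene.

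Gene lists for fibroblast and pluripotency programmes were counted the same way, by whether a gene start had a member within 50 kb. Mesenchymal transcription factors had one for 11 of 33 genes (33.3%, 95% interval 19.8 to 50.4), fibroblast extracellular matrix genes for 7 of 25 (28.0%, 14.3 to 47.6) and genes of the TGF-beta pathway for 7 of 25 (28.0%, 14.3 to 47.6). Pluripotency genes had one for 5 of 24 (20.8%, 9.24 to 40.5), AP-1 genes for 2 of 12 (16.7%), epithelial genes for 4 of 25 (16.0%), neural progenitor genes for 3 of 21 (14.3%) and housekeeping genes for 2 of 20 (10.0%). Among the 5 pluripotency genes, Klf4 and Sox2 had members only in their own exons, whose coding sequences were also delivered by virus. Over all protein-coding genes the share was 15.8%. The intervals make no allowance for the number of lists, and no list was tested against that share. With kept sites the share was 15.2% for that list, 20.8% for pluripotency genes and, over all genes, 1973 of 21911. Of the 11 mesenchymal genes with a member, 8 had no kept site within the same distance, as had 3000 of the 3466 genes with a member.

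Among the mesenchymal factors, Ebf2, Runx2 and Prrx1 had 2 members each. The Runx2 sites lay in its introns, with scores of 19.1 and 4.16, the Ebf2 sites at −5288 and −43003 bp from the start (15 and 13.8), and the Prrx1 sites 31458 bp downstream and 14072 bp upstream of the start (8.52 and 7.64). The farther Ebf2 site lay in an intron of Gm30806. All 4 sites of Ebf2 and Prrx1 were called in Oct4 S151M, and 1 of the 2 Runx2 sites. In the extracellular matrix list, Thbs1, which encodes thrombospondin, had 2 members (9.15 and 7.11), and a site 16995 bp upstream of Lum, the gene of the collagen-binding proteoglycan lumican, had the highest score of the sites named from the lists (78.4). A site 44800 bp downstream of the Col6a2 start, in an intron of Ftcd, scored 29.5. In the TGF-beta pathway the leading genes were Smad2 (14.8), Acvr1 (14.3) and Smad3 (13.8), 2 signal transducers and a type I receptor, with 1 member each. The Acvr1 site lay in an intron of Upp2. The AP-1 genes with a member were Fos (11.3, 27891 bp upstream) and Jun (4.16, 19492 bp downstream, in an intron of Gm12703). Epithelial genes were led by Krt8, a keratin gene, with a site of score 69.7 at 41177 bp from the start, followed by Esrp2 (8.52) and Ocln (7.81). The Esrp2 site lay in an intron of Nfatc3. Neural progenitor genes with a member were Fabp7 (21.1), Sox21 (7.49) and Nkx2-2 (4.04), and a site of the housekeeping list lay 26561 bp upstream of Rpl13a, at the promoter of Pih1d1 (11.8).

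Pluripotency genes were led by Pou5f1, which encodes Oct4, with 3 members, and by Klf4 and Sox2 with 2 each. The position of these sites is given because the coding sequences of Klf4 and Sox2 were delivered by retrovirus in every cocktail. That of Pou5f1 was delivered in the cocktails with Oct4 or its mutants. Both Klf4 sites (33.7 and 12.2), both Sox2 sites (18.3 and 11.3) and 1 of the Pou5f1 sites (17.4) lay in exons of those genes. Summits in exons of Klf4, Sox2 or Pou5f1 were absent from both later Oct4 libraries, and Oct4 S151M had 0 in any of the 3 genes. Oct4defSox2 at day 1 had 1 in Pou5f1, 1 in Sox2 and 2 in Klf4, and Oct6 M151S had 1 in Sox2 and 1 in Klf4. The Sox2 libraries had 1 to 3 summits each in Pou5f1 exons and 1 or 2 each in Sox2 exons, but 5 of the 6 had 0 in Klf4 exons and the other had 1. Each Sox2 library from Oct6-SK cells, which were given no Oct4 virus, had 1 summit in Pou5f1 exons. Pou3f1, the gene of Oct6, held 3 exon summits in each Sox2 library from Oct6-SK cells, 1 or 2 in those of the other cocktails, 2 in Oct6 M151S, 1 in Oct4defSox2 at day 1, and 0 in Oct4 at any day. The part that reads from the viral copies had in these sites was not tested. Outside exons, Pou5f1 had 2 further members 7917 and 8287 bp downstream of its start, in an intron of Tcf19 (5.30 and 16.4). Dppa5a had 1 at 35309 bp, in an intron of Gsta2 (25.5), and Klf2 had 1 at 2761 bp upstream (21.8), which was called in 4 other libraries.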

How the data were processed

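The authors made ChIP-seq libraries from reprogramming OG2-MEFs at days 1, 5 and 7, of which 13 were used here. The 3 input libraries were not analysed here. Reads were aligned by the authors to mm10 with Bowtie2 (2.2.5 in the submitters' processing notes), filtered with SAMtools, and peaks were called per library with MACS2 at a p-value threshold, which by its scores was looser for Oct6 M151S. The deposited summit scores are −log10 p-values, neither adjusted nor scaled between libraries, so they depend on depth, which these lists do not hold and which was not used here. Deposited peak tables of Oct4 S151M and Oct6 M151S also gave the authors' fold enrichment (a ratio over local background) and −log10 q-values, and the fold enrichment was used as deposited. All 227116 summits were read, and 49 Oct4 summits off chromosomes 1 to 19, X and Y were left out. No summit lay past a chromosome end of GRCm38.

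The members, motifs and gene lists were chosen with earlier results of these data known. Sites were named by rule: the 2 highest day 1 scores outside chromosome 18 in each of 5 exclusive motif classes, the 3 bound in most libraries, the 2 with Sox2 in Oct4-SK at day 5 and fewest other libraries, and the 2 on each side of the threshold; the 10 genes with most sites (ties by summed score), and the 3 leading genes of each list. A site and a gene that this rule names are not reported here. The tRNA genes and the exons of the delivered genes were singled out after their values had been seen. A site counted as bound when a summit lay within 100 bp of its strongest day 1 summit. Promoters and genes came from GENCODE M21 basic, tRNA genes and sequence from RefSeq GRCm38.p6. SoxOct (2 mismatches), MORE and MORE+1 (1) and CTCF (1) were matched as consensus strings on both strands. An octamer match can lie within a SoxOct match, and 114 of 661 SoxOct members also held an octamer.

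Shares have Wilson and differences Newcombe 95% intervals (paired for the same sites), for counting error only. No p-value was computed. In all, 174 differences were computed, 119 of which excluded 0. The procedure was tested on simulated data. Alternatives varied sharing distance, score minimum, summit numbers, summits per peak, distance from later summits, sites of all 3 antibodies, day 1 score, motif match and window, and promoter distance. Calculations used Python 3.11.15, numpy 2.4.6, pandas 2.3.3, pysam 0.24.0, samtools 1.23.1 and matplotlib 3.10.9.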

Additional observations from a re-analysis of the deposited data

How the results depend on the processing

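No paired analysis was possible because each group had 1 library, so libraries could not be paired, and the paired intervals are over sites. Of 32 results, 16 kept their direction and their side of counting error under all alternatives run for them, the 4 score ranges apart, among them the lower shares of Oct4defSox2, Oct4 S151M, and day 5 Sox2 in Oct4-SK and Oct6-SK cells at day 1 only sites, and those of SoxOct, MORE, the octamer and promoters. Within the 4 score ranges, Oct4 S151M at 20 and above (−1.94) and the octamer (−3.07) and promoters (−4.30) under 6 were within counting error. The number of sites was 3398 with a score of at least 10 and 2121 with equal numbers of the strongest Oct4 summits. Sox2 in Oct4-SK at day 1 (day 1 only minus kept, points) was −1.10 at 250 bp, −1.34 with equal Oct4 summits, −1.80 with 1 summit per peak and −1.72 without sites of all 3 antibodies, all within counting error, and 0.368 with a score of at least 10 and 1.37 with a day 1 score under 10. Under that last limit, Sox2 in Oct4defSox2-SK at day 5 was −1.44, single Sox −3.44, KLF −0.936 and tRNA genes 0.865, within counting error, and AP-1 −4.44, past it. Oct6 M151S passed it at −0.684 with a score of at least 10 and −0.885 with equal other summits. AP-1 with a 50 bp window was −1.65 against kept and −1.62 against day 5 only sites, and −2.97 against the latter with equal Oct4 summits, all past it. Sox2 in Oct4defSox2-SK from day 1 to day 5 was −0.912 with a score of at least 10 and 0.781 with equal other summits. For Oct4defSox2 at day 1, SoxOct minus no POU motif was 4.43 without sites of all 3 antibodies, 13 with a stricter and 5.35 with a looser match, past counting error, and MORE minus no POU motif was 4.59 at 250 bp and 4.47 with equal Oct4 summits, within it. For Oct4 S151M, SoxOct minus no POU motif was −1.08 with equal other summits (1034 each). For Sox2 in Oct4-SK at day 1, SoxOct minus no POU motif was −4.58 at 250 bp, and with minus without AP-1 was 0.0469 at 50 bp, 1.44 with a score of at least 10, 2.49 with equal Oct4 summits and 1.26 with equal other summits. The tRNA difference was 0.0908 from kept and 0.111 from day 5 only sites with a score of at least 10, and −0.0397 and −0.0202 with equal Oct4 summits. The tRNA alternatives were chosen after seeing the data. The cause of these changes was not tested. Read depth was not used here, and a missing summit does not show an absent factor.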
